A study of Mus musculus with 16 samples.

Results

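CYTB, COX1, COX2, COX3, ATP6 and ATP8 are the genes of mitochondrial DNA that encode subunits of respiratory complexes III, IV and V. Their transcripts were followed in a calf muscle, the gastrocnemius, from wild-type (WT) mice and from mice heterozygous for Eif6 (Het), the gene of an initiation factor that binds the large subunit of the cytosolic ribosome. The array held 1 probe for each of these 6 genes, out of 34650 gene names, and each of the 6 was well above background on each of the 16 arrays. The genes were selected on their names, but with values of these data in view. CYTB and ATP6 had stood among the highest Het to WT differences in polysome RNA, and mitochondrial transcripts among the lowest ratios of polysome to whole-muscle RNA. Every comparison with polysome RNA is therefore given as a description, with no test.

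WT mice were Eif6+/+ littermates, and both genotypes were C57BL6 males of 8 to 16 weeks with no further allele or agent named. Each of 3 mice per genotype gave total RNA of the whole muscle and RNA of the polysome fractions, which pooled the sucrose gradient fractions that the protocol describes as holding 2 or more polysomes. RNA of the monosome fraction, which sediments like a single ribosome, was arrayed for 2 mice per genotype, replicates 1 and 2 in WT and 1 and 3 in Het, and what else that fraction held was not tested. RNA came from all cell types of the muscle, in which fewer cells of a type and less RNA per cell cannot be told apart. All 12 skeletal muscle markers examined were well above background in at least 1 group, and their summed signal lay between 19.38 and 20.21 log2 units on every array.

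Mitochondrial DNA is transcribed inside the organelle as long RNAs that carry many genes, which are cut apart largely at the transfer RNAs between them. The messenger RNAs stay in the organelle and are read there by mitochondrial ribosomes, which are smaller than cytosolic ribosomes and are built from mitochondrial ribosomal RNA and imported proteins. CYTB is the only mitochondrially encoded subunit of complex III, which passes electrons from ubiquinol to cytochrome c. COX1, COX2 and COX3 form the core of complex IV, cytochrome c oxidase, which reduces oxygen. ATP6 and ATP8 are membrane subunits of complex V, the ATP synthase. The remaining subunits of all 3 complexes are made from nuclear genes on cytosolic ribosomes.

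The 6 probe sequences are shown because each value below rests on 1 probe of 60 bases. Binding of these probes to RNA from nuclear copies of mitochondrial DNA was not tested, so each signal is that of the probe. They are given 5′ to 3′ in the sense of the transcript, as read from the array files.
CYTB: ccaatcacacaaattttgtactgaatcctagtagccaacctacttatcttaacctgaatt
COX1: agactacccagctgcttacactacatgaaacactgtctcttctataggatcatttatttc
COX2: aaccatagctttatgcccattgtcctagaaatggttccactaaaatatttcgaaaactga
COX3: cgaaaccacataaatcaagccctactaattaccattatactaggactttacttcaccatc
ATP6: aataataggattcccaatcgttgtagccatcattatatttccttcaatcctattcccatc
ATP8: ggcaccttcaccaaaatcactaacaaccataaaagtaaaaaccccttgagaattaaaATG
The capitals mark the last 3 bases of the ATP8 probe, which lie at the annotated start of ATP6 and so belong to both genes.

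On mouse build mm9 the array design places all 6 probes on the forward strand of chromosome M, inside the annotated transcripts of the genes. From left to right they lie at chrM:6650-6709 (COX1), chrM:7619-7678 (COX2), chrM:7870-7929 (ATP8), chrM:7965-8024 (ATP6), chrM:9072-9131 (COX3) and chrM:15099-15158 (CYTB). The ATP8 and ATP6 probes are 35 bases apart. These genes overlap and share one messenger RNA, so their signals are not independent readings of 2 transcripts. The ATP6 probe covers bases 39 to 98 of its annotated transcript and the ATP8 probe bases 105 to 164, whereas the COX1 probe covers bases 1323 to 1382 and the CYTB probe bases 955 to 1014. Between 21 and 23 of the 60 bases of each probe are G or C.

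Signals are log2 values of the scanner's processed intensity after quantile normalization over all arrays, a scale on which 1 unit is a doubling. The level of one probe cannot be set against that of another, so levels are compared within a gene. For CYTB, whole-muscle signal was 16.22, 16.37 and 16.05 in WT mice 1 to 3 and 15.97, 15.80 and 16.16 in Het mice 1 to 3. Its polysome signal was 12.45, 9.91 and 13.48 in WT and 14.04, 14.41 and 13.95 in Het. Its monosome signal was 15.97 and 11.08 in WT mice 1 and 2, and 17.36 and 17.30 in Het mice 1 and 3. Whole-muscle levels of the genotypes overlapped, all polysome arrays lay below all whole-muscle arrays, and both Het monosome arrays lay above every other array.

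COX1 is the catalytic subunit of complex IV. Its whole-muscle signal was 17.50, 17.72 and 17.58 in WT and 17.39, 17.39 and 17.78 in Het. Polysome signal was 15.15, 13.58 and 15.41 in WT and 16.03, 15.70 and 15.88 in Het. Monosome signal was 17.65 and 15.28 in WT and 18.17 and 18.25 in Het. As for CYTB, all polysome arrays lay below all whole-muscle arrays and the Het monosome arrays lay highest.

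COX2, which takes electrons from cytochrome c, gave 16.19, 16.92 and 17.05 in WT whole muscle and 17.02, 17.02 and 17.13 in Het. In polysomes it gave 14.73, 12.32 and 14.90 in WT and 15.33, 15.20 and 14.85 in Het. In monosomes it gave 17.72 and 14.14 in WT and 17.86 and 17.78 in Het. It was the one gene of the 6 whose polysome values overlapped between the genotypes, WT mouse 3 lying above Het mouse 3. COX3, the third core subunit, gave 15.73, 16.43 and 16.65 in WT whole muscle and 16.19, 16.29 and 16.69 in Het. Its polysome signal was 12.36, 10.36 and 13.42 in WT and 13.74, 13.96 and 13.67 in Het, and its monosome signal was 16.48 and 13.22 in WT and 17.13 and 17.21 in Het. All 3 COX genes were lowest on the polysome array of WT mouse 2.

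ATP6, the subunit that forms the proton path of complex V with the ring of c subunits, gave 14.76, 14.60 and 14.13 in WT whole muscle and 14.45, 14.09 and 14.36 in Het. Its polysome signal was 9.74, 8.67 and 11.30 in WT and 11.67, 12.31 and 11.70 in Het. Its monosome signal was 15.09 and 10.59 in WT and 16.07 and 16.19 in Het. ATP6 thus covered a wider range than the COX genes, whose probes were brighter, and a flattening of bright signals was not tested. ATP8, a small membrane subunit, gave 12.75, 12.32 and 12.28 in WT whole muscle and 11.65, 11.74 and 12.16 in Het. Its polysome signal was 7.31, 7.34 and 8.89 in WT and 9.13, 9.86 and 9.69 in Het, and its monosome signal was 12.78 and 8.95 in WT and 13.33 and 14.38 in Het. For ATP8 the polysome array of WT mouse 1 was as low as that of WT mouse 2.

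**Figure D1:**
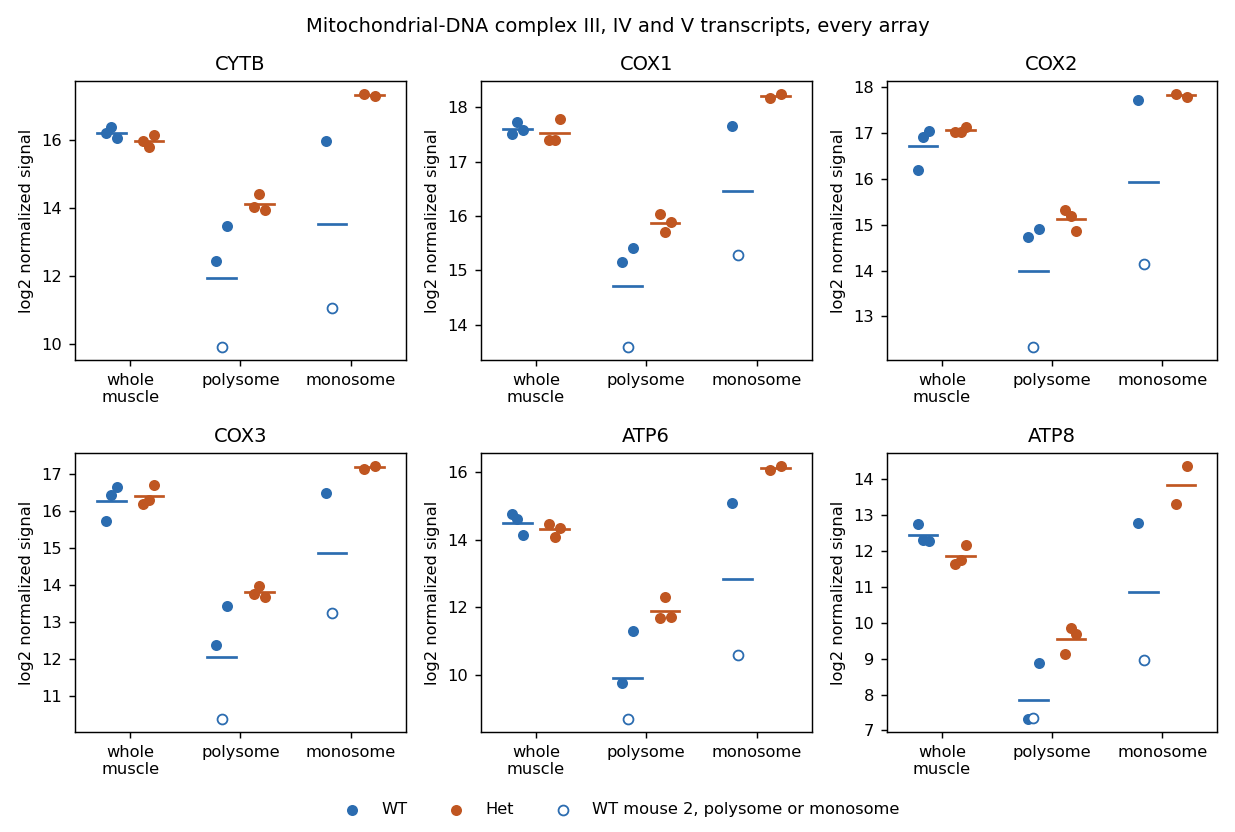
Log2 normalized signal (vertical axis) of the 6 transcripts in whole muscle, polysome and monosome RNA. Points are arrays, bars are group means, blue is WT, orange is Het, and open points are the polysome and monosome arrays of WT mouse 2. In all 6 panels the Het monosome arrays are highest and the WT polysome mean is lowest.

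The order of the group means was nearly the same for all 6 genes. Het monosome RNA was highest, from 13.85 ± 0.74 for ATP8 to 18.21 ± 0.053 for COX1 (SD, n = 2). WT and Het whole muscle came next and differed from each other by no more than 0.60, in either order. WT monosome RNA and Het polysome RNA followed, and WT polysome RNA was lowest, from 7.84 ± 0.90 for ATP8 to 14.71 ± 0.99 for COX1 (SD, n = 3). Only for CYTB did the Het polysome mean lie above the WT monosome mean, 14.13 ± 0.24 against 13.53 ± 3.46. The WT monosome group spread by an SD of 1.68 (COX1) to 3.46 (CYTB) log2 units, so that its place between its neighbours in this order was within its own spread.

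The arrays of WT mouse 2 that stood low also stood apart over the whole array. In 1200 pairs of probes at least 500 bases apart on one transcript, the 5′ probe exceeded the 3′ probe by a median of 0.58 log2 units on the polysome array of this mouse and of 0.82 on its monosome array. The same median lay between -1.35 and -0.79 on the other 14 arrays. The mean of the 6 transcripts was lower on these arrays than on the other arrays of their groups. Array brightness, the 75th percentile of the processed signal, ran from 12.7 on WT monosome 2 to 150 on WT whole muscle 1. In whole muscle it was lower on every Het array (13.5 to 33.0) than on every WT array (42.3 to 150). The part of the 5′ to 3′ balance in the levels of the 6 transcripts was not tested, and the values of the 6 genes that rest on these 2 arrays are given with and without them. Eif6 itself was lower on every Het array than on every WT array of the same RNA kind, by both of its probes.

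**Figure D2:**
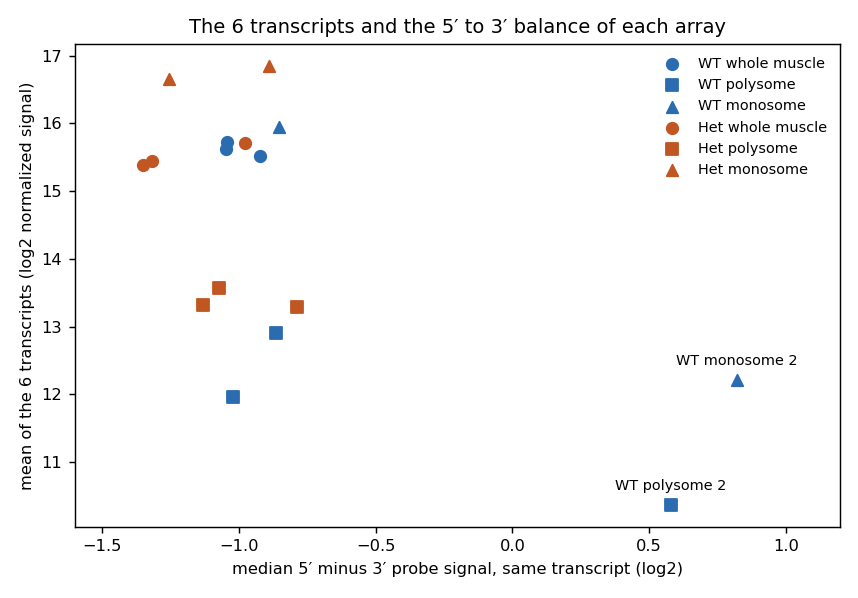
Mean log2 normalized signal of the 6 transcripts (vertical axis) against the median log2 difference of 5′ and 3′ probes of the same transcripts (horizontal axis), 1 point per array. Circles are whole muscle, squares polysome and triangles monosome RNA. The polysome and monosome arrays of WT mouse 2 lie at 0.58 and 0.82 on the horizontal axis, and the other 14 arrays lie at -0.79 or below.

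The first comparison asked whether the transcripts differed between genotypes in total RNA. None of the 6 passed the test, and the differences (Het minus WT) had both signs. ATP8 had the lowest, -0.60 (95% confidence interval -2.20 to 1.0), followed by CYTB (-0.23, -2.39 to 1.93), ATP6 (-0.19, -2.08 to 1.69), COX1 (-0.080, -1.24 to 1.08), COX3 (0.12, -1.53 to 1.77) and COX2 (0.34, -1.34 to 2.02). The limma adjusted p was 1 for every one of them, and 0 of 20251 probes, or 0%, passed an adjusted p under 0.05. Without adjustment limma passed 1123 probes, and the methods' t-test passed 1276, none of which held after adjustment (0 probes). Within slide 1 the median of the 6 genes was -0.031 and within slide 2 it was -0.22.

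In limma these intervals rest on the spread pooled over all groups, the 2 arrays of WT mouse 2 included. Without those arrays, an alternative chosen after the data had been seen, the interval for CYTB was -0.79 to 0.32 and that for COX1 -0.46 to 0.30, and none of the 6 passed (0.0148% of probes did). ATP8 was the only gene of the 6 for which all Het whole-muscle arrays lay below all WT arrays, as 8.05% of probes did. Its exact 2-sided permutation p was 0.1, the smallest that 3 against 3 mice can give. For its polysomal RNA the study used a threshold of a log2 difference beyond 1 with p under 0.05. Applied here to whole muscle with unadjusted p, that threshold passed 0 of the 6 genes by limma, against 4.46% of probes. By the methods' t-test it passed 0, against 2.11%. Direction depended on scaling. With each array scaled to its 75th percentile the median of the 6 genes was 0.41, on the authors' table it was -0.51, and 1.45 when array brightness entered the fit, against -0.14 here.

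The nuclear partners of these subunits also showed no called difference in whole muscle. Of the nuclear subunits, 0 of 9 for complex III, 0 of 14 for complex IV and 0 of 17 for complex V passed, with median differences of 0.12, 0.15 and 0.13. Among the genes of mitochondrial transcription and RNA stability 0 of 25 passed, from Peo1, the mitochondrial DNA helicase (0.54), to Tefm, a transcription elongation factor (-0.63). The median over all tested probes was -0.014.

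Polysome RNA was compared with whole-muscle RNA within each mouse, since every mouse gave both. Arrays were normalized to a common distribution, so a ratio compares signals relative to each RNA pool. It does not give the fraction of a transcript that is held in polysomes. All 6 transcripts were lower in polysome RNA in all 6 mice. Over both genotypes the mean log2 ratio was -3.50 ± 1.60 for ATP6 (SD, n = 6 mice), 11.3-fold lower, -3.45 ± 1.46 for ATP8, -3.41 ± 1.37 for COX3, -3.06 ± 1.85 for CYTB, -2.33 ± 1.15 for COX2 and -2.27 ± 0.98 for COX1, 4.82-fold lower. The order differed between the genotypes. In WT ATP8 (-4.60 ± 1.07), ATP6 (-4.59 ± 1.59), CYTB (-4.27 ± 1.99) and COX3 (-4.22 ± 1.60) lay below COX1 (-2.89 ± 1.09) and COX2 (-2.74 ± 1.66), and in Het COX3 (-2.60 ± 0.37) was lowest, followed by ATP6 (-2.41 ± 0.55), ATP8 (-2.29 ± 0.36), COX2 (-1.93 ± 0.30), CYTB (-1.85 ± 0.41) and COX1 (-1.65 ± 0.27). Most neighbouring means in these orders lay closer together than the spread between mice. Array brightness was 150 on WT whole muscle 1 and 57.1 on WT whole muscle 2. On these arrays the processed signal before normalization was 354424 and 297126 for COX1, but 105489 and 38454 for ATP6. The part of a flattening of bright signals in the order of the genes, here and in the later ratios, was not tested. Without WT mouse 2 the WT means were -4.42 for ATP8, -3.92 for ATP6, -3.30 for COX3, -3.17 for CYTB, -2.26 for COX1 and -1.80 for COX2, so that COX3 then lay below CYTB. Over the 5 mice left the means were -3.14 for ATP8 (8.82-fold lower), -3.01 for ATP6 (8.08-fold), -2.88 for COX3 (7.35-fold), -2.38 for CYTB (5.19-fold), -1.90 for COX1 (3.72-fold) and -1.88 for COX2 (3.68-fold). The median over all tested probes was 0.093, and between 0.0296% (ATP6) and 0.563% (COX1) of tested probes had a lower mean ratio, or between 0.0691% (ATP8) and 1.12% (COX2) without WT mouse 2. For all 6 genes the WT polysome arrays lay below all WT whole-muscle arrays, as did 18.4% of probes, and the same held in Het, as for 14.8% of probes.

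Nuclear subunits of the same complexes were on the other side of 0. All 9 nuclear subunits of complex III had a mean polysome to whole-muscle ratio above 0, from Cyc1, cytochrome c1 (0.042), to Uqcrc1, a core protein (1.22). All 14 of complex IV were above 0, from Cox4i1 (0.31) to Cox6a1 (1.1), and 15 of 17 of complex V, from Atp5g1 (-0.040) to Atp5k (1.08). The medians were 0.57, 0.57 and 0.47, and 56.3% of all tested probes were above 0. Without WT mouse 2 the counts above 0 were again 9, 14 and 15, with medians of 0.71, 0.55 and 0.51. The factors for assembling complexes III, IV and V had a median of -0.19, with 5 of 17 above 0, and the untranslated nuclear RNAs, of which 5 were tested, a median of -0.88. Of the 7 complex I genes of mitochondrial DNA, 6 were below 0, with a median of -2.61 and ND1 lowest (-4.23). The exception was ND6 (0.47), the one protein gene of the opposite strand.

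The reduction was smaller in Het than in WT mice in the means of all 6 genes. For CYTB the log2 ratio was -3.77, -6.45 and -2.58 in WT mice 1 to 3 and -1.93, -1.40 and -2.21 in Het. For ATP6 it was -5.02, -5.93 and -2.83 in WT and -2.78, -1.78 and -2.66 in Het, and for ATP8 -5.44, -4.98 and -3.39 in WT and -2.52, -1.88 and -2.46 in Het. These 3 genes and COX1 and COX3 had no overlap between genotypes, as 12.7% of probes with Het higher, by as little as -2.83 against -2.78 for ATP6. The count rests on the polysome values that chose the genes and supports nothing. COX1 gave -2.35, -4.14 and -2.17 in WT and -1.36, -1.69 and -1.90 in Het, and COX3 gave -3.37, -6.07 and -3.22 in WT and -2.45, -2.33 and -3.02 in Het. COX2 overlapped, with -1.45, -4.60 and -2.15 in WT and -1.70, -1.83 and -2.27 in Het. The Het minus WT differences of the means were 2.42 for CYTB, 2.32 for ATP8, 2.19 for ATP6, 1.63 for COX3, 1.24 for COX1 and 0.80 for COX2. Without WT mouse 2 they were 1.33, 2.13, 1.52, 0.70, 0.61 and -0.13 in the same order, and the median of the 6 genes went from 1.91 to 1.01.

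**Figure D3:**
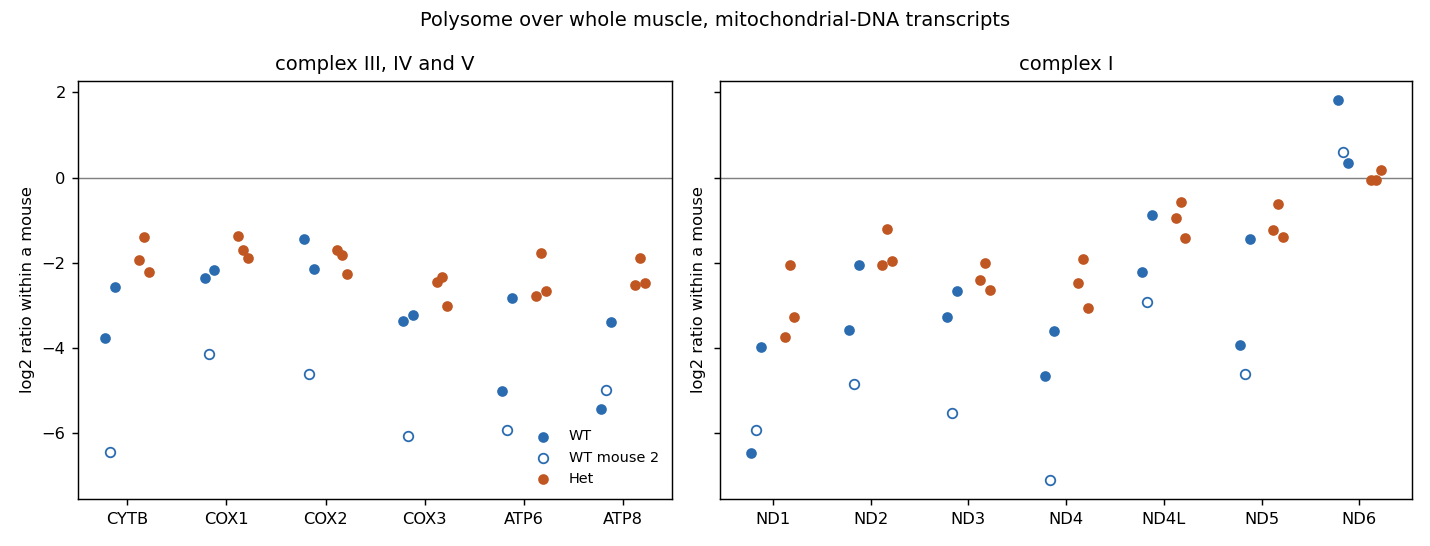
Log2 ratio of polysome to whole-muscle signal within each mouse (vertical axis) for the 6 transcripts (left) and the complex I transcripts of mitochondrial DNA (right). Blue is WT, orange is Het and open points are WT mouse 2. All points of the 6 transcripts lie below 0, the mean over mice being -3.50 for ATP6 and -2.27 for COX1.

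In polysome RNA alone the Het minus WT difference was 2.19 for CYTB, 1.99 for ATP6, 1.75 for COX3, 1.72 for ATP8, 1.16 for COX1 and 1.14 for COX2. Het arrays lay above all WT arrays for 5 of the 6 genes, as for 12.9% of probes. The values that led to the choice of these genes are among them, so this count supports nothing. Without WT polysome 2 the differences were 1.17, 1.37, 0.90, 1.47, 0.59 and 0.31. Within slide 1, where 1 Het array met 2 WT arrays, the median of the 6 genes was 2.10, and within slide 2, where 2 Het arrays met 1 WT array, it was 0.55. With array brightness as a term the median was 1.07, against 1.73 here. Blood cell markers lay on the other side of 0, with 5 of 5 tested genes lower in Het polysomes and a summed signal of 13.32 to 13.80 in Het against 14.35 to 15.41 in WT. Immune cell markers (9 of 9 lower, 10.86 to 11.98 against 11.64 to 12.93) and fibroblast and matrix markers (8 of 9 lower, 15.91 to 16.12 against 16.42 to 16.64) did likewise, against 48.2% of all probes below 0. Without WT polysome 2 these lists were lower for 5 of 5, 9 of 9 and 9 of 9. Slow or oxidative fibre markers were higher for 8 of 9, with overlapping sums (15.14 to 15.61 against 14.85 to 15.71), skeletal muscle markers were higher for 10 of 12, and adipocyte markers were lower for 5 of 6. In whole muscle, too, immune cell markers (8 of 9, median -1.10), fibroblast and matrix markers (8 of 9, median -0.35) and endothelial markers (6 of 7, median -0.29) were lower in Het, with none passing. Their part in the result was not tested.

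The monosome arrays were not among the values that chose the genes, but they come from the same mice as the polysome arrays. Deviations from the group means of a mouse's polysome and monosome arrays correlated over probes with r between 0.357 and 0.663, so the comparison is not independent of that choice. All 6 transcripts had higher means in Het monosome RNA, and none passed. CYTB differed by 3.80 (95% confidence interval 1.16 to 6.45), ATP6 by 3.29 (0.98 to 5.60), ATP8 by 2.99 (1.02 to 4.95), COX3 by 2.32 (0.29 to 4.34), COX2 by 1.89 (-0.17 to 3.94) and COX1 by 1.74 (0.33 to 3.16). The limma adjusted p lay between 0.0904 (ATP8) and 0.176 (COX2), and 0.479% of probes passed. For all 6 genes both Het arrays lay above both WT arrays, as did 26.8% of probes. The difference was smaller against WT mouse 1 than against WT mouse 2. Without WT monosome 2 and WT polysome 2 it was 1.36 for CYTB, 1.07 for ATP8, 1.03 for ATP6, 0.69 for COX3, 0.56 for COX1 and 0.097 for COX2, with limma adjusted p between 0.152 and 0.922 and 0.296% of probes passing. Without WT monosome 1 instead, all 6 passed, with a median difference of 4.42, but so did 53.7% of all probes.

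The slides divided the monosome arrays in the same way. Slide 1 held mouse 1 of each genotype, with a median difference of 0.59 over the 6 genes, and slide 2 held WT mouse 2 and Het mouse 3, with 4.71 and all 6 genes passing, as did 40.5% of probes. Each of these sets 1 array against 1, with the spread taken from the other groups. Marker lists moved here too. Blood cell markers were lower in Het for 5 of 5 tested genes (13.89 to 14.14 against 14.23 to 15.79) and immune cell markers for 8 of 9 (11.49 to 11.86 against 12.51 to 12.84). Slow or oxidative fibre markers were lower for 8 of 9 (14.13 to 14.24 against 14.21 to 15.34, median difference -0.75), adipocyte markers for 5 of 6 (12.05 to 12.06 against 12.12 to 12.81) and fibroblast and matrix markers for 6 of 9 (15.50 to 16.27 against 16.51 to 16.80), against 47.4% of all probes. None of these markers passed. Without WT monosome 2 the counts lower were 4 of 5 for blood, 9 of 9 for immune, 4 of 9 for fibre, 6 of 6 for adipocyte and 9 of 9 for fibroblast and matrix markers. Their part in the difference was not tested. Of the complex I genes of mitochondrial DNA 0 of 7 passed, with a median of 2.93, from ND6 (-0.34) to ND4 (5.12). Of the nuclear subunits 0 of 9, 0 of 14 and 0 of 17 passed for complexes III, IV and V, with medians of 0.90, 1.07 and 0.76.

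The comparison of monosome with whole-muscle RNA asked where the transcripts stand when polysomes are set aside. It shares its whole-muscle arrays with the polysome ratios that were in view when the genes were chosen, so its tests are not independent of that choice. In Het mice all 6 transcripts were higher in the monosome fraction. The log2 difference was 2.00 for ATP8 (95% confidence interval 0.21 to 3.79), 1.83 for ATP6 (-0.28 to 3.93), 1.35 for CYTB (-1.06 to 3.77), 0.78 for COX3 (-1.07 to 2.63), 0.76 for COX2 (-1.11 to 2.64) and 0.69 for COX1 (-0.61 to 1.98). With all arrays in the fit 0 of the 6 passed, with limma adjusted p between 0.251 and 0.799, and 1.88% of probes did. Both monosome arrays lay above all 3 whole-muscle arrays for all 6 genes, as for 21.1% of probes.

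Neither outlying array belongs to this Het comparison, but both enter its pooled spread. Without them the moderated SD of limma, which is drawn towards a value shared by all probes, fell from 1.23 to 0.308 for CYTB. For COX1 it fell from 0.656 to 0.212. The differences are the same by construction, since neither Het group holds these arrays and the normalization was not repeated. With the smaller spread 4 of the 6 genes passed, as did 16.2% of probes. The limma adjusted p was 0.0103 for CYTB, 0.0121 for ATP6, 0.0143 for ATP8 and 0.0352 for COX1, and it was 0.0669 for COX2 and 0.148 for COX3. With mouse as a block in that fit, also chosen after the data had been seen, 3 passed (CYTB, ATP6 and ATP8), as did 13.2% of probes, and COX1 did not (limma adjusted p = 0.0806). With 75th percentile scaling, which moved the median of all probes from 0.039 to -0.063, the median of the 6 genes relative to all probes was 0.58, against 1.03 here.

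In WT mice the monosome fraction gave 2 different pictures. In mouse 1 the log2 ratio of monosome to whole muscle was -0.25 for CYTB, 0.15 for COX1, 1.54 for COX2, 0.75 for COX3, 0.33 for ATP6 and 0.034 for ATP8. In mouse 2 it was -5.28, -2.45, -2.78, -3.21, -4.01 and -3.37. The fitted WT differences were below 0 for all 6 genes, from -2.68 for CYTB (95% confidence interval -5.10 to -0.27) to -0.79 for COX2 (-2.66 to 1.09). None passed, with limma adjusted p between 0.0765 and 0.479, while 33.9% of probes did. With 75th percentile scaling CYTB passed, and 33% of probes, and on the authors' table CYTB, COX1 and COX3 passed, and 34.7% of probes. CYTB was the only one with both monosome arrays below all 3 whole-muscle arrays, as 28.3% of probes were. Without WT monosome 2 and WT polysome 2 the differences lay between -0.24 (CYTB) and 1.0 (COX2) and again none passed, against 13.7% of probes. With mouse as a block in that fit all 6 were above 0, from 0.053 (CYTB) to 1.36 (COX2), and COX2 passed (limma adjusted p = 0.0372), as did 14.7% of probes. Without WT monosome 1 all 6 passed, with a median of -3.27, together with 59.8% of probes.

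Whether the monosome to whole-muscle difference itself differed between genotypes was tested as an interaction. The Het minus WT value was highest for CYTB (4.04, 95% confidence interval 0.62 to 7.45) and lowest for COX2 (1.55, -1.11 to 4.21). The limma adjusted p lay between 0.136 and 0.430, so that 0 of the 6 genes passed, and 0.079% of probes did. Without WT monosome 2 and WT polysome 2 the values ran from -0.24 (COX2) to 1.67 (ATP8), with 0 of 6 passing and 0.0889% of probes, and with mouse as a block there again 0 of 6 passed, against 2.98% of probes. Without WT monosome 1 they had a median of 4.66 and all 6 passed, as did 44.6% of probes. The number passing, of the 6 genes and of all probes, therefore changed with the WT monosome array that was kept.

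**Figure D4:**
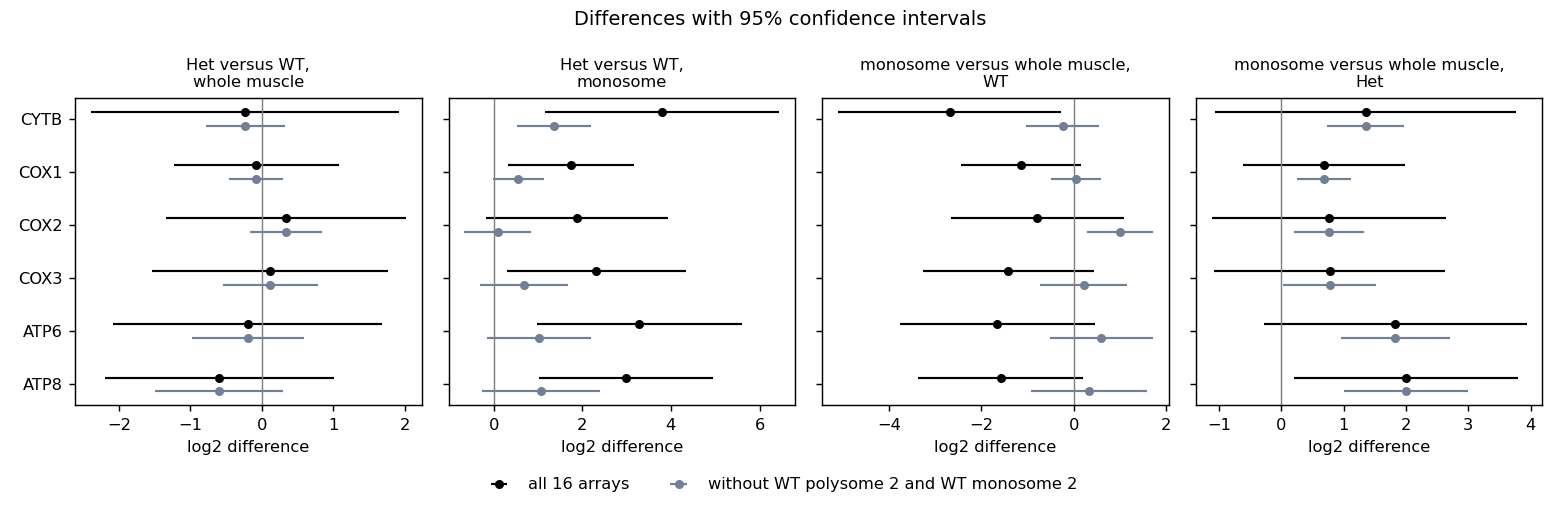
Log2 differences (horizontal axes) of the 6 transcripts with 95% confidence intervals from limma, with all 16 arrays (black) and without WT polysome 2 and WT monosome 2 (grey). Panels are Het versus WT in whole muscle and in monosomes, and monosome versus whole muscle in WT and in Het. Grey values that involve WT monosome RNA rest on 1 WT monosome array, so their intervals take its spread from the other groups. Grey intervals are narrower throughout, and in Het monosome versus whole muscle all 6 lie above 0, from 0.69 for COX1 to 2.00 for ATP8.

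The related lists stood unevenly in the Het monosome fraction, where 52.5% of all probes were above whole muscle and 1.88% passed. Of the complex I genes of mitochondrial DNA all 7 were above whole muscle and 1 passed, ND4L, a small membrane subunit, being highest (2.46) and ND1 lowest (0.40). Nuclear complex IV subunits were above whole muscle for 14 of 14, of which 4 passed, from Cox4i2 (0.16) to Cox8b (2.13). For complex V 11 of 17 were above and 2 passed, from Atp5a1 (-1.18) to Atp5e (1.48), and for complex III 5 of 9 were above and 1 passed in each direction, from Uqcrc2 (-1.18) to Uqcr10 (1.41). The genes of mitochondrial transcription and RNA stability were below whole muscle for 21 of 25, of which 1 passed, from Tefm (-2.27) to Slirp (0.26), an RNA-binding protein that stabilises mitochondrial messengers. Of the 11 mitochondrial translation factors 10 were below and 0 passed. The untranslated nuclear RNAs lay on the same side as the 6 genes, 4 of 5 being above whole muscle with a median of 1.55, against 1.06 for the 6 genes. Of them 1 passed, Neat1, the RNA of nuclear paraspeckles (2.89, limma adjusted p = 0.022).

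Polysome was set against monosome RNA in the 4 mice with both arrays, again as a description. All 6 transcripts were lower in polysomes in all 4 mice. The mean log2 ratio was -4.04 ± 1.48 for ATP6 (SD, n = 4 mice), with no tested probe below it, and -3.99 ± 1.67 for ATP8. COX3 gave -3.48 ± 0.52, CYTB -2.84 ± 1.12, COX2 -2.57 ± 0.54 and COX1 -2.17 ± 0.35. In this ratio WT mouse 2 stood closest to 0 for all 6 genes. CYTB was -3.52 and -1.17 in WT mice 1 and 2 and -3.32 and -3.35 in Het mice 1 and 3, and ATP6 was -5.36 and -1.91 against -4.40 and -4.49. COX1 was -2.50 and -1.69 against -2.14 and -2.36. Without WT mouse 2 the means over 3 mice were -4.79 for ATP8, with no tested probe below it, -4.75 for ATP6, -3.68 for COX3, -3.40 for CYTB, -2.82 for COX2 and -2.33 for COX1. WT mouse 2 thus had low signals in both fractions and the smallest gap between them. The nuclear subunits had median polysome to monosome ratios of 0.85 for complex III, 0.28 for complex IV and 0.52 for complex V, and the untranslated nuclear RNAs -1.65, or 0.54, 0.017, 0.44 and -1.61 without WT mouse 2.

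**Figure D5:**
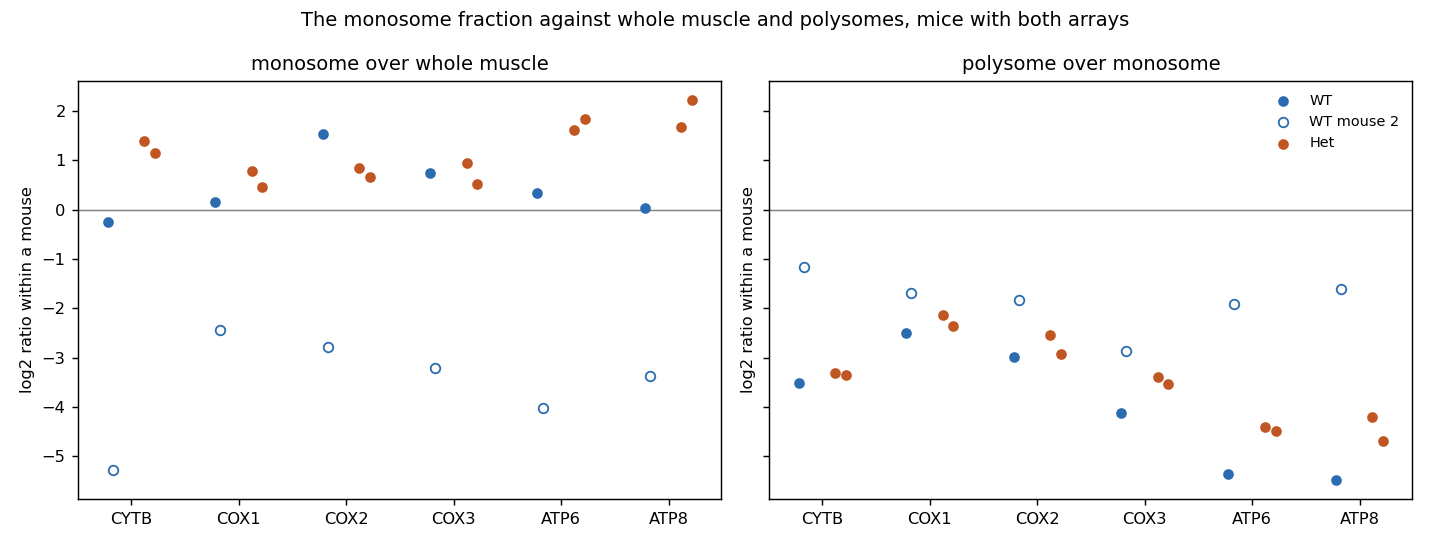
Log2 ratio within a mouse (vertical axes) of monosome to whole muscle (left) and of polysome to monosome (right) for the 6 transcripts in the 4 mice with monosome arrays. Blue is WT, orange is Het and open points are WT mouse 2. Het mice lie above 0 on the left for all 6 genes, WT mouse 2 lies between -5.28 (CYTB) and -2.45 (COX1) there, and all mice lie below 0 on the right.

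Across the 16 arrays the 6 transcripts rose and fell together. Pearson correlations between them lay between 0.916 (COX2 and ATP8) and 0.991 (COX1 and COX3), over arrays that share mice and fall into groups, so they describe these arrays only. ATP6 and ATP8, on one messenger, gave 0.985. With the complex I genes other than ND6 they lay between 0.780 (CYTB and ND4L) and 0.991 (ATP6 and ND2). With ND6 they lay between 0.048 (CYTB) and 0.218 (COX2). Among 9141 probes well above background on all arrays and outside mitochondrial DNA, the pattern most like the mean of the 6 transcripts was that of TC1663799 (r = 0.977), followed by 2900097C17Rik (0.967), Mrpl30, a protein of the large mitochondrial ribosomal subunit (0.963), Zfp106 (0.963) and an intergenic transcript of chromosome 2 (0.959). Without WT polysome 2 and WT monosome 2 these correlations lay between 0.954 and 0.971 over 14 arrays.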

How the data were processed

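RNA of 3 kinds from gastrocnemius of 3 WT and 3 Het mice was hybridised to 16 single-colour Agilent arrays on 2 slides of 8. Feature Extraction 11.0.1.1 gave the deposited scanner files, which hold spot intensities, the processed signal being background-subtracted and not scaled between arrays. The authors' table holds log2 values that rank as the raw median intensity (Spearman 1) with equal medians, and was used as an alternative. Number of arrays limits precision. The main limma fit does not use the pairing of arrays by mouse, so arrays of the same mouse enter it as separate values. Its p-values rest on the spread between arrays within groups, pooled over all groups, the 2 outlying arrays of WT mouse 2 included.

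Of 59305 non-control spots per array, outlier spots (the scanner's non-uniform and population flags) were dropped. Log2 values were quantile-normalized over all 16 arrays, and repeated probes were then averaged. Arrays stand for a mouse each within an RNA kind. Tests covered the 20251 probes that were well above background throughout 1 or more groups. The 6 groups were fitted together with limma 3.58.1 in R 4.3.3 (lmFit, eBayes), with p-values adjusted by Benjamini-Hochberg over these probes and a threshold of 0.05. The fit was tested on simulated data. For single genes in whole muscle an exact permutation test over mice was added. List genes with several probes were represented by the brightest on average, and from each list the genes with the highest and lowest difference were named. The 5 probes most like the mean of the 6 genes were also named.

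The 6 genes and all lists were chosen with earlier results of these data known. The design text states that each mouse gave every RNA kind, so that equal numbers within a genotype pair the kinds. Deviations from group means of arrays of the same mouse correlated with r between 0.030 and 0.663. Numbers are not shared between genotypes, where each marks a different mouse. Gene names and mm9 positions are those of the array files. All 6 names matched the mitochondrial genes of the RefSeq table, from which no coordinate was taken. Alternatives were other scalings and background corrections, the authors' table, slide or brightness as terms, replicate blocks, other filters, the methods' t-test (unpaired, equal variance) and leaving out each array.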

Additional observations from a re-analysis of the deposited data

How the results depend on the processing

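Het versus WT in whole muscle passed 0 of the 6 genes under all alternatives run, but the direction of single genes moved. The median was 0.41 with 75th percentile scaling (COX1 0.74, CYTB 0.20), -0.51 on the authors' table (COX2 -0.32, COX3 -0.58) and 1.45 with array brightness as a term (CYTB 1.89, ATP6 1.77, COX1 0.87, ATP8 0.84). COX3 was -0.0040 with normexp. Within slide 1 ATP6 was 0.096, COX1 0.0077 and COX3 -0.16, and COX3 was -0.15 without WT whole-muscle replicate 1 and -0.030 without Het whole-muscle replicate 3. Leaving out single arrays, the median lay between -0.22 and -0.051, and COX3 reached 0.31.

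In monosomes the Het versus WT median was 0.59 within slide 1 and 4.71 within slide 2, where 6 genes and 40.5% of probes passed. Leaving out single arrays it lay between 0.86 (without WT monosome replicate 2) and 4.42 (without WT monosome replicate 1), with 0 to 6 genes passing (53.7% of probes where 6 did). For monosome versus whole muscle in WT, 1 gene passed with 75th percentile scaling and 3 on the authors' table, as did 33% and 34.7% of probes, and with brightness as a term COX2 was 0.50 and ATP6 0.37. Leaving out single arrays the WT median lay between -3.27 and 0.27, with 0 to 6 genes passing, the lowest values (COX1 -2.32, COX2 -2.58, COX3 -3.05, ATP6 -3.91, ATP8 -3.50) being those without WT monosome replicate 1, where 59.8% of probes passed. Without WT monosome replicate 2, with or without WT polysome replicate 2, the median was 0.27 and COX1 was 0.048, COX2 1.0, COX3 0.21, ATP6 0.60 and ATP8 0.33. In Het the median was 0.51 with 75th percentile scaling and 0.65 with brightness as a term, and 4 genes passed without WT polysome replicate 2 and WT monosome replicate 2. Without single arrays it lay between 1.0 and 1.19 with 0 passing. The genotype difference of that comparison had a median of 0.81 with brightness as a term (COX2 -0.040), and of 0.93 without WT monosome replicate 2, with or without WT polysome replicate 2 (COX2 -0.24). Leaving out single arrays it lay between 0.93 and 4.66 (COX2 up to 3.34), with 0 to 6 genes passing (44.6% of probes where 6 did). Where a setting leaves 1 array in a group, that array is assumed to vary like the other groups.

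With mouse as a block, monosome versus whole muscle had medians of -1.17 in WT, 1.09 in Het and 2.53 for the difference, and 0 genes passed. With the replicate number as a block, which pairs no mice between genotypes, the Het versus WT medians were -0.14 in whole muscle, 2.14 in monosomes and 1.73 in polysomes, with 0 genes passing where tested. With all arrays in the fit no gene passed with or without either block. With mouse as a block and WT polysome replicate 2 and WT monosome replicate 2 left out (a setting added once the data were known) 3 genes passed in Het, against 4 without the block. The WT median, which then rested on 1 WT monosome array, was 0.67 (CYTB 0.053, COX1 0.19, COX2 1.36, COX3 0.79, ATP6 0.88, ATP8 0.55), and that of the genotype difference 0.71 (COX2 -0.59). Over all probes and arrays the mouse block took the number passing from 381 to 70 in Het. It took it from 6866 to 7134 in WT and from 16 to 1473 for the difference. Same-numbered arrays of the same RNA kind in WT and Het had deviations that correlated between -0.33 and 0.45. For the polysome comparisons the direction of the median held under all alternatives run. The ratio of polysome to whole muscle of COX2 differed between genotypes by -0.13 without WT replicate 2, against 0.80. Over all probes the number passing ranged from 0 to 6 for whole muscle (0 here), 0 to 10880 for monosomes (97), 249 to 12116 for monosome versus whole muscle in WT (6866), 6 to 3274 in Het (381) and 0 to 9039 for the difference (16). The cause of these shifts was not tested.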
